A study of Mus musculus with 2 samples.

Results

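The genes described here were those of the factors that start and drive protein synthesis, in neural stem cells (NSCs) of the mouse cortex. They were chosen by name, as the known genes whose symbol begins with Eif1, Eif2, Eif3, Eif4, Eif5, Eif6 or Eef, leaving out the genes of the gamma subunit of eIF2. The rule gave 65 of the 23257 known genes, of which 56 were named Eif and 9 were named Eef, and no expression value entered it. Of these, 12 belonged to groups that regulate translation factors or only share their name: 4 kinases of eIF2, 4 regulators of the cap binder eIF4E and 4 Argonautes, the small RNA binding proteins that still carried older Eif2c names. The other 53 are called core members by group, although Eef2k, Eef1e1 and Eif4a3 among them mainly have other roles.

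The series held 2 RNA-Seq libraries of 1 condition, replicates 1 and 2 of purchased NSCs from the E14.5 cortex of CD-1 mice. The labels name no engineered allele. Cells grew as a monolayer in medium with 20 ng/ml of EGF and 20 ng/ml of FGF, and with no other group in the series there was no contrast between conditions to test. Messenger RNA was selected by its poly(A) tail, and the kit did not mark strand. The labels did not say whether the libraries came from separate cultures, so the spread between them may be technical.

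In translation initiation, eIF1, eIF1A, eIF2 and eIF3 load the small ribosomal subunit with the initiator tRNA, and eIF4F, made of the cap binder eIF4E, the scaffold eIF4G and the helicase eIF4A, brings it to the capped mRNA. After the start codon is found, eIF5 and eIF5B join the large subunit, eEF1A delivers each aminoacyl-tRNA, and eEF2 moves the ribosome along. Growth signals act on this machinery through the eIF4E binding proteins, and stress acts through kinases of the alpha subunit of eIF2.

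Levels were FPKM, fragment numbers divided by the length of the transcript and by the size of the library, so that genes can be set side by side. Without read counts, neither depth nor counting error could be given, and precision rests on the agreement of 2 libraries. The lowest value in the files was 0.1, and a gene there is said to be listed at 0.1. By the paper's methods, lower values were replaced by 0.1 for fold calculations, so 0.1 may stand for any lower value. Over known genes the FPKM summed to 352990 for replicate 1 and to 367131 for replicate 2. All 10 markers of NSCs and radial glia were above FPKM 1 in both libraries, among them the transcription factor gene Sox2 with 148 and 139. None of the 6 microglial, 5 endothelial or 5 pericyte and fibroblast markers was, while 4 of 8 neuronal markers, 6 of 7 oligodendrocyte lineage markers and 5 of 5 astrocyte markers were.

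Nearly every translation factor gene was expressed in the NSCs, most of them at high levels. Of the 65 members, 62 were above FPKM 1 in both libraries, a level that 47.7% of all known genes reached. There were 53 members above FPKM 10 in both libraries beside 24.5% of known genes, and 16 above FPKM 100 beside 2.35%. All but 2 members were above 0.1 in both libraries, as were 57.8% of known genes. The median FPKM of the members was 50.9 in replicate 1 and 48.5 in replicate 2, and 50.2 by the mean of the libraries. Over all known genes that median was 0.695, and over the 11083 of them that passed FPKM 1 in both libraries it was 10.8. The known genes include small RNA genes, such as Mir328 and Snord2, both listed at 0.1. Such genes may lower the shares and the median over all known genes, and by how much was not computed. The 3 members that stayed below FPKM 1 were Eef1a2, Eif4e1b and Eif4e3, each a paralog of an abundant factor.

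**Figure D1:**
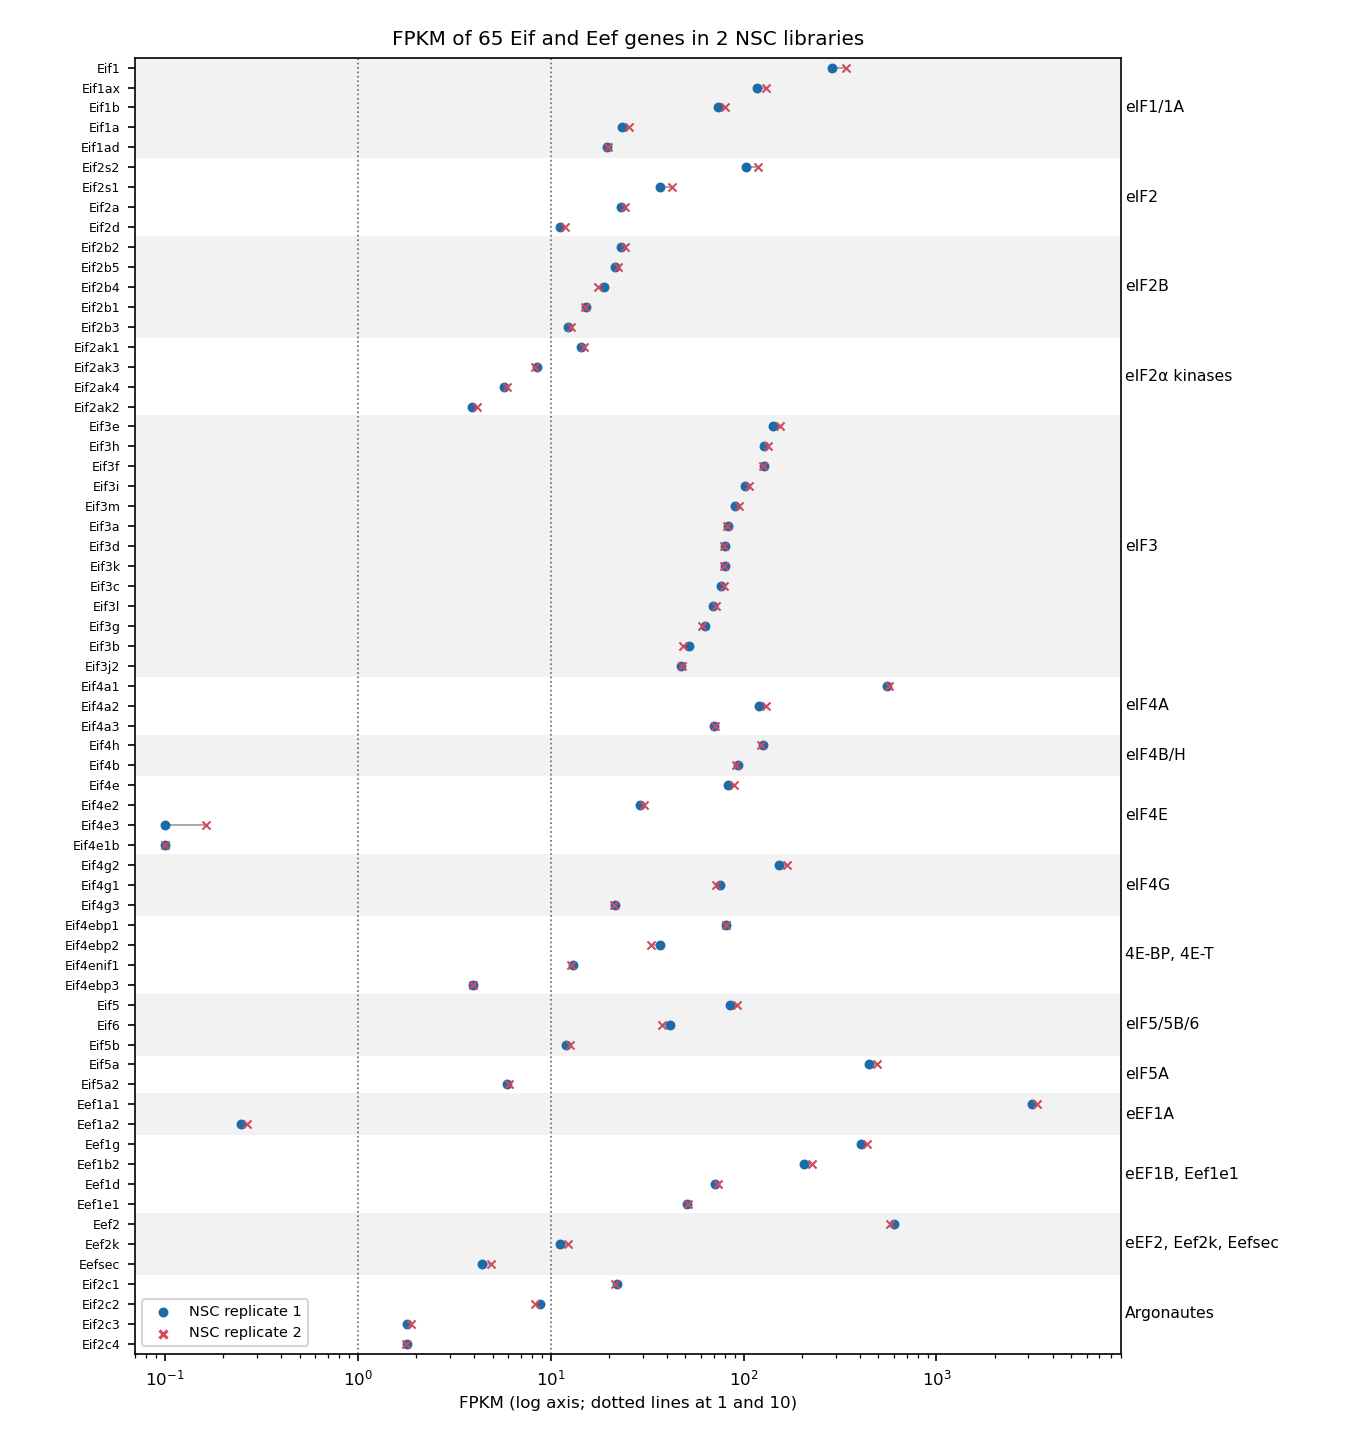
FPKM of each of the 65 members on a log axis, with circles for NSC replicate 1, crosses for replicate 2, grey lines between them and dotted lines at FPKM 1 and 10. Members are grouped by their role, and Eef1a1 stands above all others while Eef1a2, Eif4e3 and Eif4e1b lie below FPKM 1.

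The members took 2.41% of the summed FPKM of known genes in replicate 1 and 2.44% in replicate 2. Eef1a1 by itself made up 36.7% and 37.2% of the members' sum. Without it the other members held 1.53% and 1.54% of the sum over known genes. Next came Eef2 with 7.05% and 6.41%, Eif4a1 with 6.49% and 6.33%, Eif5a with 5.22% and 5.50%, and Eef1g with 4.78% and 4.87% of the members' sum. The core members had a median FPKM of 72.8, and 50 of 53 were above FPKM 1 and 48 above FPKM 10 in both libraries.

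Elongation factors held the highest level. Eef1a1, which carries aminoacyl-tRNA to the ribosome, had an FPKM of 3126 in replicate 1 and 3332 in replicate 2, and it ranked 1 among all known genes by its mean. Its paralog Eef1a2, known as the form of muscle and mature neurons, had only 0.249 and 0.267. Eef1a1 thus made up 99.992% of the summed FPKM of the pair in both libraries. The coding sequences of the 2 genes are 79.9% identical in an alignment, and Eef1a2 had no 100-base window in common with another gene.

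The exchange factor eEF1B, which reloads eEF1A with GTP, was unequal in its subunits. The scaffold subunit gene Eef1g had an FPKM of 408 in replicate 1 and 437 in replicate 2. Eef1b2, a catalytic subunit gene, followed with 205 and 226. Eef1d, the gene of the other catalytic subunit, had 71.4 and 74.1. Eef1g was therefore 1.99-fold above Eef1b2 in replicate 1 and 1.94-fold in replicate 2, and Eef1b2 was 2.87-fold and 3.05-fold above Eef1d. These orders were the same in both libraries, with no overlap of values. The level of Eef1g is less certain, since 49.4% of its 100-base windows were in common with other loci. Eef1e1, whose protein is a partner of the aminoacyl-tRNA synthetases despite its name, had 50.9 and 51.8.

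Eef2, the translocase, had an FPKM of 601 in replicate 1 and 575 in replicate 2. Eef1a1 exceeded it 5.20-fold and 5.80-fold. Eef2k, the kinase that inactivates eEF2, was far lower with 11.1 and 12.3. Eefsec, the elongation factor for selenocysteine, was lower again with 4.40 and 4.91. Eif5a, an initiation factor by name that helps the ribosome through difficult peptide bonds and termination, had 445 and 493. Its paralog Eif5a2 had 5.97 and 6.07, so that Eif5a took 98.7% and 98.8% of the pair. The 9 Eef members had a median FPKM of 72.8, and the 56 Eif members one of 43.8, with ranges that overlapped widely.

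Factors of start codon scanning spanned more than 10-fold. Eif1, which guards the fidelity of start codon choice, had an FPKM of 288 in replicate 1 and 341 in replicate 2, and its paralog Eif1b had 73.8 and 79.9. Eif1ax, the X-linked gene of eIF1A, had 118 and 130, and the autosomal gene Eif1a had 23.5 and 25.5. Eif1 took 79.6% and 81.0% of its pair, and Eif1ax took 83.4% and 83.6% of its own. Both pairs are closely alike in coding sequence, with 81.1% identity for Eif1 and Eif1b and 85.6% for Eif1a and Eif1ax. Eif1ad, named for its eIF1A-like domain, had 19.5 and 19.8.

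Among the genes of eIF2, the carrier of the initiator tRNA, the beta subunit exceeded the alpha subunit. Eif2s2, the beta subunit gene, had an FPKM of 103 in replicate 1 and 118 in replicate 2. Eif2s1, whose protein is the target of the stress kinases, had 36.8 and 42.8. The ratio of Eif2s2 to Eif2s1 was 2.79 and 2.77, with an SD of 0.0163 (n = 2 libraries), although each gene differed by more than most members between the libraries. Of the sequence of Eif2s2, 18.8% of 100-base windows were in common with the pseudogene Gm9892, and reads of the pair could not be told apart there. Eif2a and Eif2d, factors that can bring tRNA to the ribosome by other routes, had 23.2 and 24.4, and 11.2 and 11.9.

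The exchange factor eIF2B, which recharges eIF2 with GTP and whose human genes are those of vanishing white matter disease, was the most even group of 3 or more subunits. Eif2b2, the beta subunit gene, had an FPKM of 23.0 in replicate 1 and 24.2 in replicate 2, and Eif2b5, of the catalytic epsilon subunit, had 21.4 and 22.4. Eif2b4, of the delta subunit, had 18.8 and 17.6, and Eif2b1, of the alpha subunit, had 15.2 and 15.1. The lowest was Eif2b3, of the gamma subunit, with 12.4 and 12.7. From highest to lowest mean the group spanned 1.88-fold, and no neighbours in this order overlapped. Eif2s1 was 1.72-fold and 1.91-fold above Eif2b5.

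All 4 kinases of the alpha subunit of eIF2 were above FPKM 1 in both libraries, beside 47.7% of known genes. Above FPKM 10 there was 1 of the 4, near the 24.5% of known genes. Eif2ak1, the heme-regulated kinase HRI, had an FPKM of 14.4 in replicate 1 and 14.8 in replicate 2. Eif2ak3, the endoplasmic reticulum stress kinase PERK, had 8.51 and 8.34. Eif2ak4, the amino acid sensor GCN2, had 5.73 and 5.92, and Eif2ak2, the viral RNA sensor PKR, had 3.91 and 4.13. HRI took 44.2% and 44.6% of the kinases' summed FPKM, and the order of the 4 was the same in both libraries.

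The eIF3 complex, the scaffold of the small subunit during initiation, was high throughout. All 13 members were above FPKM 10 in both libraries, with a median of 80.0. The highest was Eif3e with 141 in replicate 1 and 155 in replicate 2, and the lowest was Eif3j2 with 47.6 and 47.9, a span of 3.10-fold by means. Eif3j2 is an uncertain value, since 84.0% of its 100-base windows were in common with Eif3j1 or Spg11 and its coding sequence is 99.2% identical to that of Eif3j1, which was not a known gene of the files. Without it the span was 2.95-fold, a choice made after its value was seen.

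The subunits that build the octamer of eIF3, those with PCI or MPN domains, were Eif3a, Eif3c, Eif3e, Eif3k, Eif3l and Eif3m and Eif3f and Eif3h. They spanned 2.10-fold, from 69.3 and 71.9 for Eif3l to Eif3e, with a median of 87.3. The other 5 subunits, Eif3b, Eif3d, Eif3g, Eif3i and Eif3j2, had a median of 61.7. Of the 12 pairs of neighbours in the order of all subunits, 9 were apart, while the values of Eif3h and Eif3f, Eif3d and Eif3k, and Eif3k and Eif3c overlapped between the libraries.

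**Figure D2:**
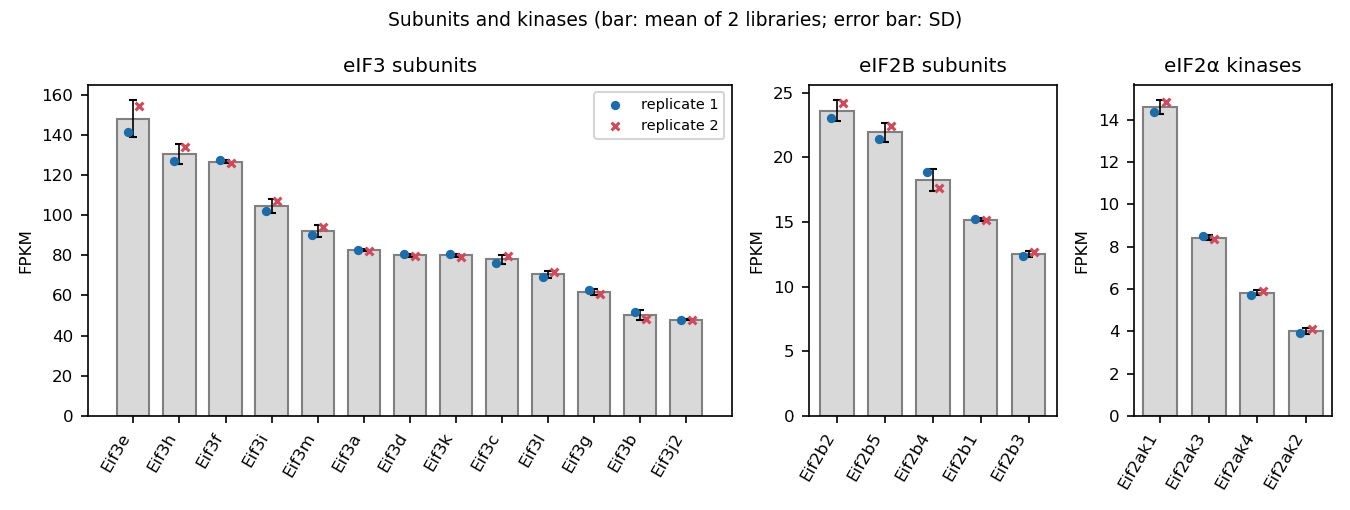
FPKM of the subunits of eIF3 and eIF2B and of the eIF2 alpha kinases, each on a linear axis from 0, with bars for the mean of 2 libraries, error bars for the SD and points for each library. The eIF3 subunits spanned 3.10-fold, the eIF2B subunits 1.88-fold and the kinases 3.63-fold by means.

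Of the parts of eIF4F, the helicase gene stood out. Eif4a1 had an FPKM of 553 in replicate 1 and 567 in replicate 2. Eif4e, the cap binder, had 83.2 and 88.8, and Eif4g1, the main scaffold, had 75.6 and 72.1. Eif4a1 was 6.65-fold and 6.39-fold above Eif4e, whereas Eif4e and Eif4g1 were 1.10-fold and 1.23-fold apart. The level of Eif4a1 is also the less certain, since 60.8% of its 100-base windows occurred in the pseudogenes Eif4a-ps4 and Gm5513.

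The paralogs of eIF4F were shared out in different ways. Eif4a2, the helicase paralog that is prominent in brain, had an FPKM of 121 in replicate 1 and 130 in replicate 2, so that Eif4a1 took 82.1% and 81.3% of the pair. Eif4a3, a part of the exon junction complex more than of initiation, had 70.3 and 71.1. Eif4g2, a scaffold that lacks the eIF4E binding site, had 153 and 167 and was 2.02-fold and 2.32-fold above Eif4g1. It thus took 61.1% and 64.2% of the summed FPKM of the scaffolds, Eif4g1 30.2% and 27.6%, and Eif4g3, with 21.6 and 21.3, the other 8.62% and 8.16%. By the reference annotation, Eif4g2 was the only member whose coding sequence starts with GTG and not ATG.

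Of the cap binders other than Eif4e, 1 was well expressed and the others were at or near the lowest value. Eif4e2, which binds the cap and represses translation, had an FPKM of 29.0 in replicate 1 and 30.4 in replicate 2. Eif4e1b, a cap binder of oocytes, was listed at 0.1 in both libraries. Eif4e3, an atypical cap binder, was listed at 0.1 in replicate 1 and had 0.164 in replicate 2. Eif4e took 74.0% and 74.3% of the summed FPKM of the 4 genes.

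**Figure D3:**
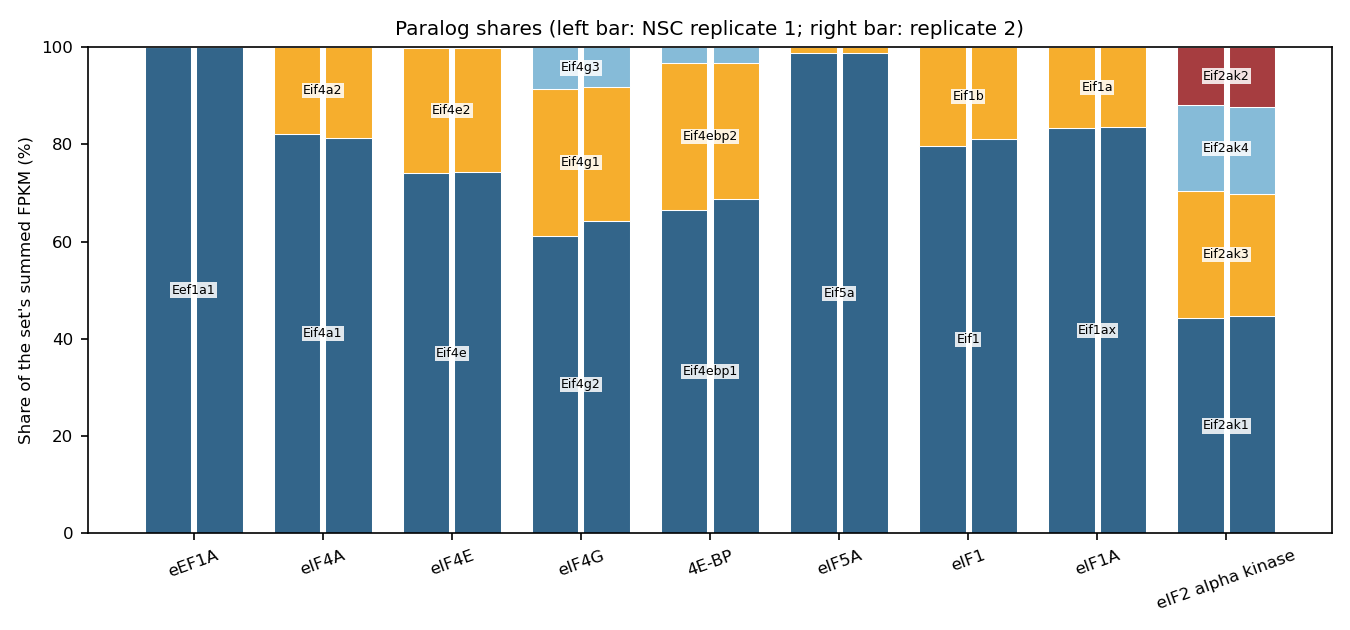
Share of the summed FPKM of each paralog set, in percent, with a left bar for NSC replicate 1 and a right bar for replicate 2. Eef1a1 and Eif5a filled almost all of their pairs, while Eif4g2 took 61.1% and 64.2% of the scaffolds and HRI (Eif2ak1) 44.2% and 44.6% of the kinases.

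The helicase cofactors were close to each other. Eif4h had an FPKM of 127 in replicate 1 and 124 in replicate 2, and Eif4b had 93.2 and 91.3. Of the proteins that hold eIF4E away from eIF4G, Eif4ebp1 had 80.9 and 81.3 and Eif4ebp2, the main form of brain, had 36.9 and 33.1. Eif4ebp3 had 3.95 and 3.97, and 62.8% of its 100-base windows were in common with the overlapping gene AC115631.1 on the same strand. Summed, these 3 genes reached 1.46 times the FPKM of Eif4e in replicate 1 and 1.33 times in replicate 2. Eif4enif1, the eIF4E transporter of the nucleus and of P bodies, had 13.1 and 12.7.

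Subunit joining was represented by Eif5, which triggers GTP hydrolysis on eIF2, with an FPKM of 85.3 in replicate 1 and 92.3 in replicate 2. Eif5b, the GTPase of joining, had 11.9 and 12.7, and Eif5 was 7.14-fold and 7.28-fold above it. Eif6, which keeps the large subunit from joining too early, had 41.3 and 38.0. In Eif5b, 16.8% of the exon bases overlapped Rev1 on the opposite strand, which had 7.83 and 8.32, and reads there could not be assigned by strand.

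The 4 Argonautes, which act in RNA silencing, were unequal. Eif2c1 (Ago1 in RefSeq) had an FPKM of 22.2 in replicate 1 and 21.6 in replicate 2, and Eif2c2 (Ago2), the slicer, had 8.76 and 8.30. Eif2c3 (Ago3) had 1.81 and 1.88, and Eif2c4 (Ago4) had 1.81 and 1.77. Among the lncRNAs of the series, 1 row carried a symbol of the same kind, Eif2c5, and was listed at 0.1 in both libraries.

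Promoter windows were taken from RefSeq (GRCm38.p6), from 250 bases before to 50 bases after each gene start, and 50 of the 65 members had an entry. A gene with several starts was counted once where any of its windows held a motif, for members and for all genes alike. The motifs were chosen after the levels were known. Windows are shown for eIF4F, eEF1 and eEF2 genes and for some subunit genes whose motif lay next to the start, each 5′ to 3′ on the strand of the gene with the motif in capitals. A match is a run of letters and not evidence that a factor binds there.

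The E box CACGTG, its own reverse complement and the core motif of MYC and other factors, was in the windows of 12 of 50 members (24%), beside 8.09% of all 27025 genes with a window and 13.1% of the 4646 of them above FPKM 10 in both libraries. It was present for each of the 3 eIF4F genes Eif4e, Eif4g1 and Eif4a1, and for Eef2, with Eif4e and Eif4g1 holding 2 matches each. The eIF4F paralogs Eif4a2, Eif4a3, Eif4e2 and Eif4g3 held none, and Eif4g2, Eif4e1b and Eif4e3 had no entry. The 12 members with the match had a median FPKM of 84.2 and the 38 without it one of 26.7. Both sets spanned a wide range, with Eif5a2 among those with it and Eef1a1 among those without it. Every eIF2 kinase, Argonaute and eIF4E regulator that had a window lacked the match. All of these had a mean below the members' median FPKM of 50.2, so the sets differ in kinds of gene too. No split over core members or over other genes was made. The E boxes are in capitals.
Eif4e, chr3:138527192-138527221, plus strand: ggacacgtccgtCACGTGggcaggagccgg
Eif4g1, chr16:20672661-20672690, plus strand: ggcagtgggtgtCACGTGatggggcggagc
Eif4a1, chr11:69672595-69672624, minus strand: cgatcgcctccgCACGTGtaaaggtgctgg
Eef2, chr10:81176576-81176605, plus strand: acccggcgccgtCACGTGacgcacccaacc

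The ETS core CCGGAAG, searched on both strands so that it also reads CTTCCGG, was in the windows of 18 members (36%), beside 9.93% of all genes and 24.5% of those above FPKM 10. Its members included Eif2b2 and Eif2b4 of eIF2B and Eif3c, Eif3d, Eif3g, Eif3l and Eif3m of eIF3. The level did not separate along with it, with a median FPKM of 48.4 in members with the match and 50.8 in those without. Examples that lie just after the gene start follow, with the ETS core in capitals.
Eef1b2, chr1:63176820-63176849, plus strand: cctgcagttccgCCGGAAGtagccgaggcc
Eif2b4, chr5:31193121-31193150, minus strand: acccagtgcacgCCGGAAGttgtagtccgc
Eif2b2, chr12:85219485-85219514, plus strand: acctctctcggcCCGGAAGtgaaacagtgc

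The GC box GGGCGG, on either strand, was in the windows of 76% of the members, beside 38.2% of all genes and 73.8% of those above FPKM 10. The TATA box TATAAA was in those of 8%, beside 15.7% and 7.81%. Both shares were near that of genes above FPKM 10 and away from that of all genes. Many mRNAs of the translation machinery are known to begin with a C and a run of pyrimidines, the TOP motif through which mTOR acts. The tract searched for was a C as the first base of the RefSeq gene start with 4 or more pyrimidines after it. It was found for 1 of 50 members, Eif3f, beside 3.01% of all genes and 3.38% of those above FPKM 10. Starts were annotated and not mapped in these cells, so a motif a few bases away was missed. The 15 members with no entry, among them Eef1d, Eef1g, Eif3e and Eif3h, were not searched. When the tract was allowed to begin within 5 bases of the start, 13 members (26%) had one, Eef1a1 among them, beside 21.2% of all genes and 23.9% of those above FPKM 10. The first bases of CTTCCGG are such a tract, so the 2 searches can meet at 1 place. Where the annotated start is more than 5 bases off, the wider search misses the tract too. Neither count therefore measures how many members have a TOP motif. The tract of Eif3f and that of Eef1a1 are in capitals, and the TATA box is that of Eef2. The tract of Eef1a1 begins at position -1, before the annotated start. Whether the mRNA begins there was not tested, so this tract is not shown to be a TOP motif.
Eif3f, chr7:108934405-108934434, plus strand: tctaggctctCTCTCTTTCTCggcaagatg
Eef1a1, chr9:78481708-78481737, minus strand: tggctccgccctCTTCCCgagggtggggga
Eef2, chr10:81176604-81176633, plus strand: ccggcgtcgaccTATAAAaggccgggcgtt

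Other genes of translation gave a frame for these levels. Beside the counts that follow, 47.7% of all known genes were above FPKM 1 and 24.5% above FPKM 10 in both libraries. The 84 genes of cytosolic ribosomal proteins, 80 of them above FPKM 1, had a median FPKM of 669, from Rpl41 with 1411 in replicate 1 and 1646 in replicate 2 to Rpl10l, listed at 0.1 in both. They took 14.5% and 15.2% of the summed FPKM. The 20 cytosolic aminoacyl-tRNA synthetases, which load tRNA, were all above FPKM 10 with a median of 43.6, near the 50.2 of the members. The highest of them was Nars, the asparaginyl enzyme, with 92.8 and 95.6, and the lowest was Qars, the glutaminyl enzyme, with 19.1 and 20.3.

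Release and recycling factors were all expressed, with 9 of 9 above FPKM 1, 7 above 10 and a median of 28.3. Abce1, the ATPase that splits ribosomes, was highest with 51.9 in replicate 1 and 53.8 in replicate 2, and Gspt2, a paralog of the release factor eRF3, was lowest with 7.85 and 9.23. Of the genes of poly(A) binding and cap signalling, 12 of 12 were above FPKM 1 and 8 above 10, with a median of 16.0. They ran from Pabpc1, the poly(A) binding protein, with 244 and 243, to Mknk1, a kinase of eIF4E, with 7.29 and 8.09.

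Genes of the stress response through phosphorylated eIF2 were present too. All 7 of the list were above FPKM 1 and 5 above 10, with a median of 16.9. Atf4, the transcription factor of this response, had 201 in replicate 1 and 199 in replicate 2, and Trib3, a pseudokinase it induces, had 4.87 and 4.49. With no stressed or unstressed group beside them, these levels show no state of the response. The enzymes that make hypusine on eIF5A and diphthamide on eEF2 had a median of 9.58, with 6 of 6 listed genes above FPKM 1 and 2 above 10, while Dph6 and Dph7 were not among the symbols of the files. Dohh, which finishes hypusine, had 20.0 and 18.4, and Dph2, of diphthamide synthesis, had 5.27 and 5.19.

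Mitochondria have their own translation factors, and their median was below that of the cytosolic members. The 9 genes had a median of 10.4, with 9 above FPKM 1 and 5 above 10. Tufm, the mitochondrial counterpart of eEF1A, had 45.3 in replicate 1 and 46.2 in replicate 2, and Mtrf1l, a release factor, had 2.19 and 2.58. These lists were set with earlier results of the data known, so their counts are descriptions of level.

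**Figure D4:**
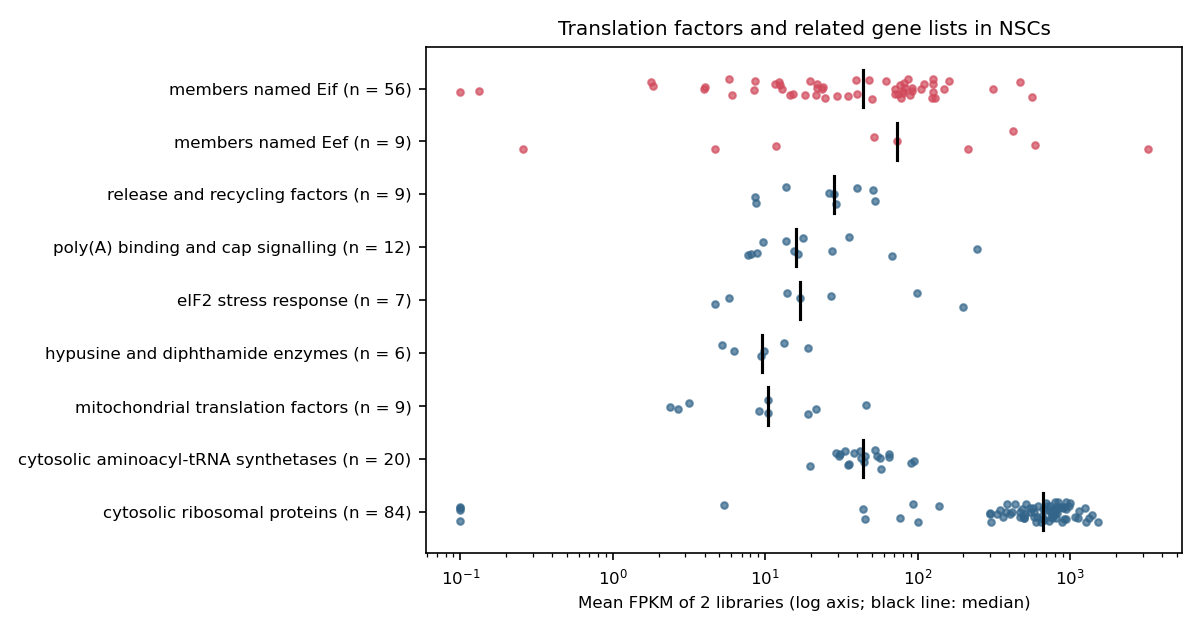
Mean FPKM of the 2 libraries on a log axis for the members named Eif and Eef (red) and for 7 related lists (blue), 1 point a gene, with a black line at each median. The ribosomal protein genes lie highest with a median of 669, and the mitochondrial factors and the enzymes of hypusine and diphthamide lie lowest with 10.4 and 9.58.

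The members' levels were close between the libraries. For the 62 members above FPKM 1 in both, the log2 ratio of replicate 2 to replicate 1 had a median of 0.05 and an SD of 0.083, and ran from -0.16 to 0.24. None of the 62 differed by more than 1.2-fold, as 5.48% of the known genes past that level did, and the SD over those genes was 0.14. Known genes with a mean FPKM of 1 to 10 carried much of this, with 8.62% past 1.2-fold, and only 9 of the 62 members lay there. At a mean FPKM of 10 to 30, 30 to 100 and 100 to 300, where 47 members lay, the share was 2.56%, 2.46% and 2.30%, so the count of 0 was near the background at these levels. Above a mean FPKM of 300, where 6 members lay, the share of known genes was 6.94%. The 5 largest ratios were those of Eif1 (1.18-fold), Eif2s1 (1.16-fold), Eif2s2 (1.15-fold) and Eefsec (1.12-fold), which were higher in replicate 2 on the deposited scale, and Eif4ebp2 (1.11-fold), which was higher in replicate 1. Of the 49 pairs of neighbours in the orders of level within the groups, 45 did not overlap between the libraries. A gap of any size counted, from 1.03-fold for Eif2c3 over Eif2c4 to 12510-fold for Eef1a1 over Eef1a2. No like count was made over other known genes, so this count shows no precision particular to the members.

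**Figure D5:**
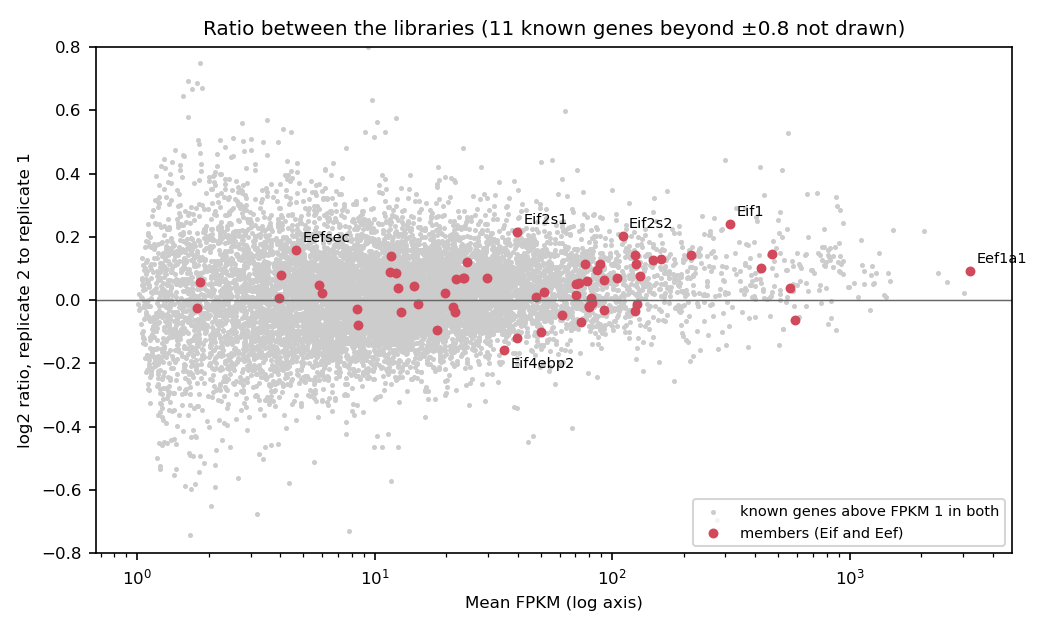
The log2 ratio of replicate 2 to replicate 1 against the mean FPKM on a log axis, for known genes above FPKM 1 in both libraries (grey) and members (red). The members lie between -0.16 and 0.24, and 11 known genes beyond 0.8 in either direction are not drawn.

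There was a small tilt toward replicate 2 on the deposited scale, and its sign depended on the scale used. On the deposited scale 42 members were higher in replicate 2 and 20 lower. With FPKM scaled to the same sum over known genes, which moves every log2 ratio by -0.057, 29 were higher and 33 lower, and the members' median went from 0.05 to -0.01. Over the known genes above FPKM 1 the median likewise went from 0.02 to -0.04. The share of them higher in replicate 2 went from 56.2% to 36.9%. The scaling moved all genes alike, and the members' median was above that of the known genes on both scales. By level, the known genes had a median log2 ratio on the deposited scale of 0.0023 at a mean FPKM of 1 to 10, 0.02 at 10 to 30, 0.04 at 30 to 100, 0.06 at 100 to 300 and 0.09 above 300. The members had 0.02, 0.05, 0.01, 0.12 and 0.096 in the same ranges, from 9, 16, 21, 10 and 6 genes, so that their medians did not rise steadily and the range with most members had the lowest. The ribosomal protein genes above FPKM 1 had 0.11. Between coding length and the log2 ratio, Spearman's rho was -0.23 across the 62 members and -0.28 across 10263 known genes. Between mean FPKM and the log2 ratio it was 0.26 and 0.16, and between coding length and mean FPKM -0.27 and -0.26. These correlations are descriptions across genes of the same 2 libraries, and genes are not independent replicates.

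The sequence of some members limits how far their values can be told from those of other loci. By the reference transcripts, 32 of the 65 members had no 100-base window in common with another gene, 11 had over 10% and 3 had over 50%, namely Eif3j2, Eif4a1 and Eif4ebp3. For Eef1g the share was 49.4%, for Eef1a1 26.7% and for Eif1 19.2%. Exons of 10 members overlapped a protein-coding gene on the opposite strand. In Eif1ad this was 15.3% of the exon bases, against Banf1, which had an FPKM of 212 in replicate 1 and 224 in replicate 2, above the 19.5 and 19.8 of Eif1ad itself. The genes lay on 19 chromosomes, with at most 7 on 1 of them, chromosome 15.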

How the data were processed

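RNA-Seq of 2 libraries of mouse NSCs was used, replicates 1 and 2 by the labels. Paired reads had been mapped by TopHat 2.0.11, through Bowtie2 2.2.2, to the mm10 build, as the methods and the submitters' processing notes give it. The authors then computed FPKM with Cufflinks 1.3.0, with multi-read and bias correction, on lncRNAs and UCSC known genes together, and deposited FPKM per library without pooling. How reads shared by several loci were split therefore rests on that correction. Depth was not given in the files, so no interval or floor could be computed.

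Members were taken by name alone, although the name rule and the lists were set with earlier results of these data known. Means, SDs, counts above FPKM 1, 10 and 100, ratios and shares were taken with pandas 2.3.3, NumPy 2.4.6 and SciPy 1.17.1 under Python 3.11.15, by code checked on simulated data. With 1 condition no test was made. Named were all members of groups of 5 or fewer, the highest and lowest of larger groups and of each list, and the 5 largest ratios between the libraries. Other members singled out, and the motifs, were chosen after their values were seen. Transcripts and exons were those of GENCODE M21 (GRCm38), alignments were made with Biopython 1.88, and promoters were those of RefSeq. No column of values was left without a sample. Alternatives were other thresholds, pseudocounts, scaling, each library alone and core members.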

Additional observations from a re-analysis of the deposited data

How the results depend on the processing

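No paired analysis was possible because the series holds 1 condition, so no groups share replicate numbers. The counts of members above FPKM 1 (62) and FPKM 10 (53) stayed within 1.5 times of these values under each alternative run, with 63 above FPKM 0.1 and 57 above FPKM 5. The median FPKM of the members, 50.2, was 56.6 for members above FPKM 1, 72.8 for core members and 140 after scaling to an FPKM sum of 1000000, the last by a change of unit alone. With a single library it lay between 48.5 and 50.9. The median log2 ratio between the libraries reversed from 0.05 to -0.0072 with that scaling, and the members higher in replicate 2 went from 42 of 62 to 29. Of the known genes above FPKM 1, the share higher in replicate 2 went from 56.2% to 36.9%. The count of members with a pyrimidine tract went from 1 to 13, and their median FPKM from 127 to 21.9, when the tract could begin within 5 bases of the gene start, since other genes then enter. For the share of the highest paralog of each set, the only alternatives were each library alone. A mean of 2 libraries always lies within their spread of such values, so these alternatives show nothing about robustness. The span of eIF3 was 3.10-fold by means, 2.97-fold in replicate 1 alone, 3.22-fold in replicate 2 alone and 2.95-fold without Eif3j2. Leaving out members at FPKM 0.1 removed no eIF3 subunit. Shares of lower paralogs were not run, and that of Eif4e3 was 0.0890% and 0.137% in the 2 libraries, the first from a value listed at 0.1. Depth is unknown, so values near 0.1 (Eef1a2, Eif4e3, Eif4e1b) cannot be given a counting error.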
